A study of Mus musculus with 13 samples.

Results

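The 9 genes Fgfr1, Fgfr2, Fgfr3, Frs2, Spry1, Spry2, Spry4, Spred1 and Dusp6, which encode fibroblast growth factor (FGF) receptors, their docking adaptor and inhibitors that restrain the signal, were taken by symbol from a table of 24421 gene symbols, and all 9 were found. RNA was sequenced from liver endothelial cells of wild-type mice in 6 libraries from germ-free mice (GF), which carry no live microbes, and in 7 libraries from conventionally raised mice (CONV-R), which carry a normal microbiota. The labels do not state strain, age, sex, cell isolation or whether each library is 1 animal, so the errors measure the spread between these libraries. Totals were 23407168 to 35478115 counts per GF library and 7590320 to 32869515 per CONV-R library. The genes were chosen by their levels in these same libraries, with the GF to CONV-R differences already known. For them this contrast is therefore a description, given as levels and fold changes with no test.

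FGF receptors are receptor tyrosine kinases that bind FGF together with heparan sulfate on the cell surface. The activated receptor phosphorylates the membrane-anchored adaptor Frs2, which recruits Grb2, Sos and the phosphatase Shp2 and so switches on RAS and the MAP kinases ERK1 and ERK2. ERK signalling induces its own brakes: Sprouty proteins (Spry) and Spred proteins act between the receptor and RAF, and the phosphatase encoded by Dusp6 removes the activating phosphates from ERK. In endothelium the same brakes also restrain signalling from VEGF receptors.

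The receptors and the Sproutys are gene families, so the stretches their transcripts share were examined first, since they bear on how cleanly the counts separate the members. Between the longest coding sequences in the GENCODE M21 annotation, Fgfr1 and Fgfr3 were identical at 71.3% of aligned bases, Fgfr1 and Fgfr2 at 73.5%, and Spry1 and Spry2 at 67.1%. No 50-base stretch was common to any pair among the 3 receptors or among Spry1, Spry2 and Spry4. The longest exact runs of 2 of these pairs, printed here in lower case from 5′ to 3′ because they mark the most alike places of each pair, were 26 and 15 bases long.
Fgfr1 (chromosome 8) and Fgfr3 (chromosome 5): gagatggagatgatgaaaatgattgg
Spry1 (chromosome 3) and Spry2 (chromosome 14): gcagtgcctctgctc

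Promoter windows of 300 bases (250 before to 50 after a start site, RefSeq, build GRCm38.p6) were given for 7 of the 9 genes, in 8 windows, and not for Fgfr1 or Spry4. Both strands were searched for CCGGAA, the core bound by ETS factors, which ERK activates, for TGANTCA, bound by AP-1, and for TGACGTCA, bound by CREB. The ETS core was present in 2 of the 8 windows, those of Frs2 and Spry2, and in 14.9% of all 32851 windows of this length. AP-1 and CREB matches were present in 0 of the 8 windows, against 7.81% and 1.79% of all windows. The motifs share no match with each other, and a match is a run of letters that does not show binding. The windows of Frs2 and Spry2 are printed for their ETS cores, in capitals whichever strand they match, and the first of the 2 Fgfr3 windows, which holds none of the 3 motifs, because Fgfr3 had the largest fold change of the 9 genes.
Frs2, chr10:117148425-117148724, minus strand: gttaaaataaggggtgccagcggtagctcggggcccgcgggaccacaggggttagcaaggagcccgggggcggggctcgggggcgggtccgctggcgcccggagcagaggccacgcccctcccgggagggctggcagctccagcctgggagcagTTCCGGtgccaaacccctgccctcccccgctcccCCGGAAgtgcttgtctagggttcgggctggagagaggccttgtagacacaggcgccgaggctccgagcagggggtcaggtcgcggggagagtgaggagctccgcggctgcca
Spry2, chr14:105896770-105897069, minus strand: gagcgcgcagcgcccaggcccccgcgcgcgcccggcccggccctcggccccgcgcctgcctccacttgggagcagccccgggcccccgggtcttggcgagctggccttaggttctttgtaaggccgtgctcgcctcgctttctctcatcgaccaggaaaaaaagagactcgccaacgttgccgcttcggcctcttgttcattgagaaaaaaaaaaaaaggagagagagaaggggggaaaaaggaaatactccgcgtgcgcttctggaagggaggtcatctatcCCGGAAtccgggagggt
Fgfr3, chr5:33721474-33721773, plus strand: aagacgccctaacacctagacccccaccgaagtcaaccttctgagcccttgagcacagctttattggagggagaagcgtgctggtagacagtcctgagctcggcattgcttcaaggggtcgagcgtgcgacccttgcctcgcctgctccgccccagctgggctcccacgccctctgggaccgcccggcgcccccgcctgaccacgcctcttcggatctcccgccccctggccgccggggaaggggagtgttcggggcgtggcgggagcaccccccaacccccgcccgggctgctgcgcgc

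Fgfr1 and Fgfr3 were more than 3 times as high in GF as in CONV-R, while Fgfr2 was low in both groups and differed by less than its spread. All 9 genes were abundant enough to enter a fit over 13915 genes (edgeR quasi-likelihood), in which 24.1% of all genes passed a Benjamini-Hochberg adjusted p of 0.05. Since the 9 genes were chosen with this contrast known, their own calls are not used. Levels are CPM, the count scaled to the library size, with libraries set against each other by the trimmed mean of M-values (TMM), and fold changes are fitted values on the log2 scale, GF over CONV-R.

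Fgfr1, a receptor found on many mesenchymal and endothelial cells, ranged from 75.7 to 103 CPM in GF with a median of 92.2, against 25.4 to 33.2 in CONV-R with a median of 28.3. Every GF library lay above every CONV-R library. The means were 91.8 ± 9.22 CPM in GF and 28.6 ± 2.68 in CONV-R (SD, n = 6 and 7), a 3.21-fold difference (log2 1.68 ± 0.08 SE). The receptor is encoded on chromosome 8 from 25513654 to 25575718 on the plus strand (GENCODE M21, build GRCm38, the build the submitters call mm10), and the counts cover all of its exons together. The 7 CONV-R libraries differed little from each other, with a coefficient of variation of 9.38%, the smallest of the 9 genes in that group.

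Fgfr3, a receptor best known for restraining bone growth, ranged from 133 to 178 CPM in GF with a median of 137, against 27.7 to 60.3 in CONV-R with a median of 47.7. The lowest GF library thus exceeded the highest CONV-R library more than 2-fold on this scale. Its means were 147 ± 18.4 CPM in GF and 43.4 ± 13.0 in CONV-R, a 3.37-fold difference (log2 1.75 ± 0.18 SE). It lies on chromosome 5 from 33721674 to 33737068 on the plus strand. In GENCODE M21 Fgfr2 spans 130162451 to 133123350 on the minus strand of chromosome 7. The RefSeq promoter window of Fgfr2 lies inside that span, at 130266759 to 130267058, so the GENCODE extent reaches far upstream of the RefSeq start site. Complete separation, as seen for these 2 of 9 genes, occurred in 10.3% of all genes tested, with GF above in 5.96% and below in 4.32%; both were known to differ when the genes were chosen, and nothing is read from the comparison. In a bulk library, more receptor RNA per cell and more cells that carry the receptor cannot be told apart.

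Fgfr2, the receptor of many epithelia, was rare, with 85 to 338 counts per GF library and 40 to 309 per CONV-R library. It ranged from 3.75 to 10.0 CPM in GF with a median of 6.47, against 2.03 to 10.1 in CONV-R with a median of 5.91. The ranges overlapped almost entirely (log2 0.10 ± 0.34 SE). The libraries highest in Fgfr2 were also high in markers of bile duct epithelium: in GF the library with the most Fgfr2, GF 10, held 444 CPM of the 11 summed cholangiocyte markers, against 199 and 240 in GF 9 and GF 8, the lowest pair for Fgfr2. In CONV-R the pair highest in Fgfr2, CONV-R 2 and 3, held 336 and 249 CPM of these markers, against 83.1 to 137 in the other 5. With the marker sum as a covariate the Fgfr2 value was -0.89, so its sign changed. None of the 11 markers was at 0 throughout, and the sum ran from 199 to 457 CPM in GF and from 83.1 to 336 in CONV-R. Of the 11, 6 were higher in GF and 0 lower, against 11.4% and 12.7% of all genes tested. The part of these cells in the Fgfr2 level was not tested.

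**Figure D1:**
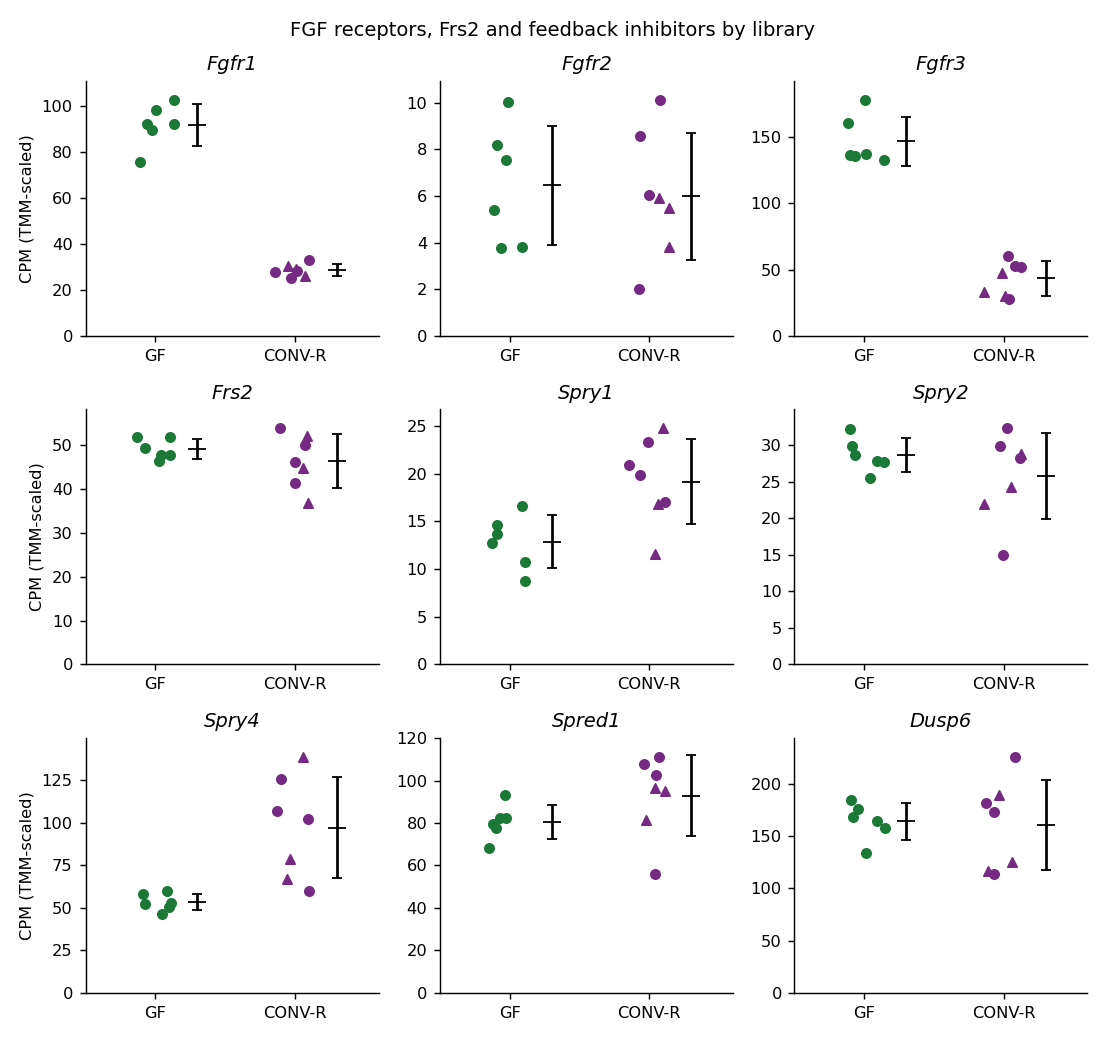
TMM-scaled CPM (y axis, from 0) of the 9 genes in each of the 6 GF and 7 CONV-R libraries; triangles are the CONV-R libraries with code number 9, circles all others, and bars give the mean ± SD. Fgfr1 and Fgfr3 are the genes whose groups do not overlap, while Spry4 overlaps by 1 CONV-R library and the other 6 overlap more widely.

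Compared per kilobase of annotated exon, so that genes of unequal length can be set side by side, Fgfr3 was the most abundant receptor in both groups, at 20.5 ± 2.57 CPM per kb in GF and 6.06 ± 1.81 in CONV-R. Fgfr1 followed at 9.29 ± 0.93 in GF and 2.90 ± 0.27 in CONV-R. Fgfr2 stood at 0.63 ± 0.25 in GF and 0.58 ± 0.26 in CONV-R, close to the fourth receptor of the family, Fgfr4, at 0.67 in GF and 0.75 in CONV-R. Summed over the 4 receptors, the level per kb was 31.1 ± 2.73 in GF, from 28.9 to 35.6, and 10.3 ± 1.99 in CONV-R, from 8.12 to 12.8. Fgfr3 made up 65.8 ± 2.73% of this sum in GF and 57.9 ± 7.21% in CONV-R, and Fgfr1 30.0 ± 3.78% in GF and 29.2 ± 7.12% in CONV-R, shares that overlapped between the groups. The share of Fgfr2 was 2.01 ± 0.80% in GF and 5.47 ± 1.87% in CONV-R, while its own level per kb overlapped between the groups. The share of Fgfr4 did not overlap, at 2.17 ± 1.07% in GF, from 1.33 to 4.00, and 7.43 ± 2.13% in CONV-R, from 4.88 to 10.6. The Fgfr4 level itself overlapped, at 1.37 to 4.10 CPM in GF and 1.93 to 4.35 in CONV-R. Fgfr1 and Fgfr3, known to differ when the genes were chosen, make up most of the sum. Nothing is therefore read from the lower shares of Fgfr2 and Fgfr4 in GF. The Fgfr1 to Fgfr3 ratio of CPM overlapped too, at 0.518 to 0.775 in GF and 0.469 to 1.20 in CONV-R.

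Frs2, the adaptor that couples these receptors to RAS, had nearly the same level in both groups. It ranged from 46.4 to 51.9 CPM in GF and from 36.7 to 53.8 in CONV-R (log2 0.08 ± 0.08 SE). In GF it was the least variable of the 9 genes, with a coefficient of variation of 4.60%, and all 6 GF values fell inside the CONV-R range. It lies on chromosome 10 from 117069427 to 117148534 on the minus strand.

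Among the inhibitors, Spry4 and Spry1 were lower in GF, while Spry2, Spred1 and Dusp6 differed less. Spry4, a Sprouty expressed in vascular endothelium, ranged from 46.6 to 59.8 CPM in GF with a median of 52.5, against 59.7 to 139 in CONV-R with a median of 102. Of the GF libraries 5 lay below every CONV-R library, and the remaining one, GF 12, stood just above the lowest, CONV-R 1. The means were 53.3 ± 4.89 CPM in GF and 97.0 ± 29.8 in CONV-R (log2 -0.87 ± 0.18 SE), so that GF held 54.9% of the CONV-R level. CONV-R 1 was the only CONV-R library that a GF library exceeded, so without it the groups had to separate, and nothing is read from that. The CONV-R range then began at 67.2 CPM, and the log2 value was -0.97. Spry4 lies on chromosome 18 from 38586247 to 38601415 on the minus strand, Spry1 on chromosome 3 from 37639947 to 37644598 on the plus strand and Spry2 on chromosome 14 from 105891947 to 105896819 on the minus strand.

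Spry1, a Sprouty with a known role in kidney branching, ranged from 8.75 to 16.6 CPM in GF with a median of 13.2, against 11.5 to 24.7 in CONV-R with a median of 19.8. The lowest CONV-R library, CONV-R 5, lay inside the GF range, and 2 of the 6 GF libraries lay below it. The means were 12.9 ± 2.79 CPM in GF and 19.1 ± 4.45 in CONV-R (log2 -0.58 ± 0.18 SE). Immediate early genes, which respond to stress and cell handling within minutes, were lower in GF in the same libraries. The 14 markers summed to 413 to 525 CPM in GF and 632 to 1937 in CONV-R, and none was at 0 throughout. Of the 14, 8 were lower and 0 higher, against 12.7% and 11.4% of all genes tested. With that sum as a covariate the log2 values were -0.37 ± 0.25 for Spry1 and -0.77 ± 0.26 for Spry4, the value for Spry1 being over 1.5 times smaller. With the hepatocyte sum they were -0.71 ± 0.28 for Spry1 and -1.02 ± 0.27 for Spry4, and with the cholangiocyte sum -0.67 ± 0.24 for Spry1 and -1.05 ± 0.24 for Spry4. The part of these genes and cells in the result was not tested.

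Spry2, the Sprouty most studied in RAS signalling, ranged from 25.5 to 32.3 CPM in GF and from 15.04 to 32.3 in CONV-R (log2 0.15 ± 0.14 SE). Spred1, which delivers the RAS inhibitor neurofibromin to the membrane, ranged from 68.4 to 93.2 CPM in GF and from 56.0 to 111 in CONV-R (log2 -0.21 ± 0.13 SE). Spred1 lies on chromosome 2 from 117121374 to 117182279 and Dusp6 on chromosome 10 from 99263231 to 99267489, both on the plus strand. In Spry2 and Spred1 the lowest CONV-R library was CONV-R 1, and without it the CONV-R ranges began at 21.96 CPM for Spry2 and 81.2 for Spred1. The log2 value of Spred1 was then -0.31 ± 0.08, over 1.5 times larger, and with the hepatocyte sum as a covariate it was -0.61 ± 0.16. Dusp6, the ERK phosphatase, ranged from 134 to 184 CPM in GF with a median of 167, against 114 to 226 in CONV-R with a median of 174. All GF values of Dusp6 lay inside the CONV-R range, and the means were 164 ± 17.3 CPM in GF and 161 ± 42.9 in CONV-R (log2 0.03 ± 0.16 SE). Per kb Dusp6 was the most abundant of the 9 genes in both groups, at 52.4 ± 5.53 CPM per kb in GF and 51.4 ± 13.7 in CONV-R. Per kb, the Sproutys changed order. GF libraries held 13.7 ± 1.09 of Spry2, 11.2 ± 1.03 of Spry4 and 4.42 ± 0.96 of Spry1. CONV-R libraries held 20.4 ± 6.27 of Spry4, 12.4 ± 2.82 of Spry2 and 6.59 ± 1.53 of Spry1. In CPM Spry4 stood above Spry2 in both groups, at a ratio of 1.76 to 2.16 in GF and 2.77 to 4.82 in CONV-R.

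**Figure D2:**
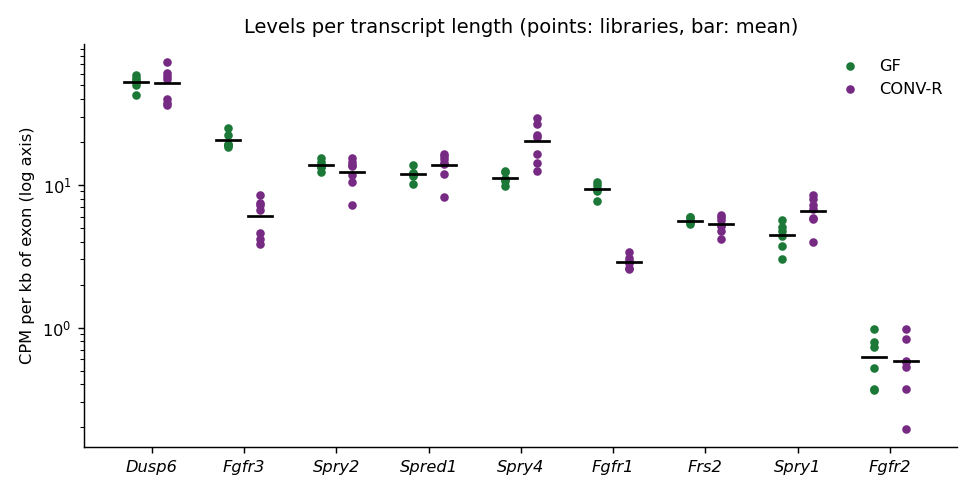
CPM per kilobase of annotated exon (log axis) for the 9 genes, ordered by their GF mean, with GF points left of CONV-R points and bars at the group means. Dusp6 stands highest at about the same level in both groups, and Fgfr3 and Fgfr1 are displaced upward in GF.

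Ratios between members within a library do not depend on how libraries are scaled to each other. The Fgfr1 to Spry4 ratio of CPM was 1.73 ± 0.19 in GF, from 1.54 to 1.96, and 0.325 ± 0.127 in CONV-R, from 0.220 to 0.556. The Fgfr3 to Spry4 ratio was 2.75 ± 0.18 in GF, from 2.53 to 2.98, and 0.453 ± 0.076 in CONV-R, from 0.344 to 0.588. The Spry4 to Dusp6 ratio, between a pair of ERK-induced inhibitors, was 0.327 ± 0.036 in GF, from 0.284 to 0.380, and 0.599 ± 0.067 in CONV-R, from 0.526 to 0.734. These 3 ratios did not overlap between the groups, nor did those of Fgfr1 to Dusp6 and of Spry4 to Spry2. Fgfr1, Fgfr3 and Spry4 were known to differ when the genes were chosen, so nothing is read from this separation. The Spry1 to Spry2 ratio, at 0.316 to 0.552 in GF and 0.526 to 1.13 in CONV-R, did overlap.

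**Figure D3:**
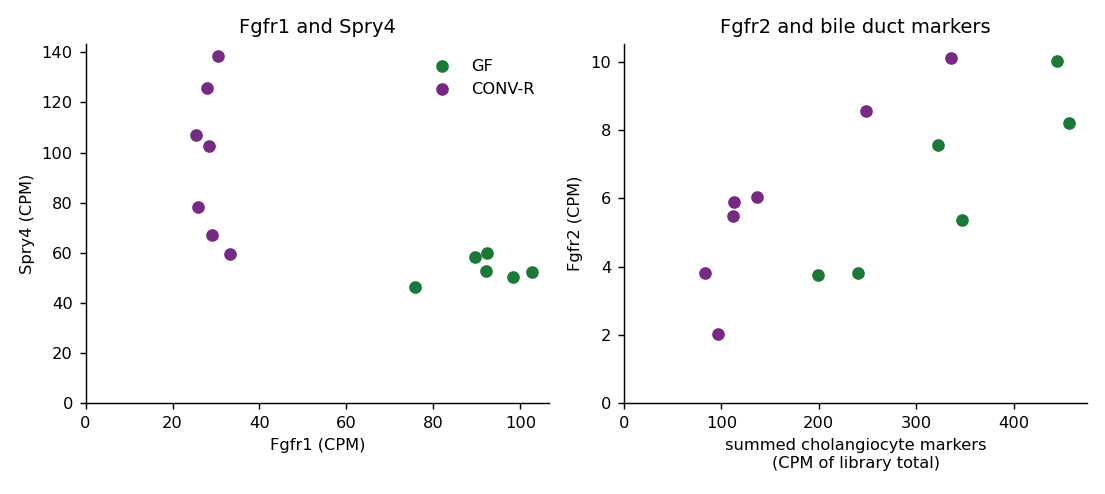
Left, Spry4 against Fgfr1 (both in TMM-scaled CPM) and right, Fgfr2 CPM against the sum of 11 cholangiocyte markers (CPM of the library total), with 1 point per library. GF libraries sit at 75.7 to 103 CPM of Fgfr1 with 46.6 to 59.8 of Spry4, apart from all CONV-R libraries, whereas on the right both groups cover a similar span of Fgfr2.

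Within CONV-R the 9 genes differed in how much they varied. The coefficient of variation was higher in CONV-R than in GF for 8 of 9 members, and for 90.2% of all tested genes, the exception among the members being Fgfr1. Without CONV-R 1 these were 7 of 9 and 84.2%. One library stood apart: CONV-R 1 was the lowest CONV-R library for 6 of the 9 genes (Fgfr2, Fgfr3, Spry2, Spry4, Spred1 and Dusp6), against 24.5% of all tested genes, and the highest for Fgfr1. The same library held the lowest sum of 15 endothelial genes, 24261 CPM against 33089 to 41332 in the other CONV-R libraries, and the highest sum of hepatocyte markers. Without it the log2 values were 1.71 for Fgfr1 and 1.65 for Fgfr3, and that of Dusp6 was -0.06.

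The library names carry a code number, 6 for all GF libraries, 10 for CONV-R 1 to 4 and 9 for CONV-R 5 to 7, whose meaning is not stated, so code and group cannot be told apart. The CONV-R libraries allow a contrast that the choice of genes did not use. Between code numbers 9 and 10, 0 of the 9 genes passed in a 3-group edgeR quasi-likelihood fit with Benjamini-Hochberg adjustment, against 0.577% of 14379 genes (0.494% higher and 0.0835% lower), and 0 had an unadjusted p under 0.05. The values for the members ran from -0.41 to -0.01 on the log2 scale, all lower at code 9, and the median over all genes was -0.02. Totals did not overlap, at 7590320 to 15523860 counts per library at code 9 and 18276439 to 32869515 at code 10. Fgfr2 had the largest difference (-0.41, 95% interval -1.35 to 0.52), followed by Fgfr3 (-0.39, interval -0.84 to 0.06), with 36.8 ± 9.48 CPM at code 9 (n = 3) and 48.3 ± 14.2 at code 10 (n = 4). Dusp6 averaged 144 ± 39.4 CPM at code 9 and 174 ± 46.3 at code 10 (-0.27, interval -0.69 to 0.14). DESeq2 also called 0 members. The edgeR fit called 0 of all genes on the CONV-R libraries alone, without CONV-R 6 and 7, and with the immediate early sum as a covariate. Limma-voom with quality weights called 2 members (Fgfr3 and Dusp6), and 1305 of all genes higher and 822 lower. Without CONV-R 1 the edgeR fit called 1 member, Fgfr3 at -0.58, and 1299 of all genes higher and 895 lower. Against code 9 alone the GF difference was 1.68 for Fgfr1, 1.98 for Fgfr3, -0.47 for Spry1 and -0.85 for Spry4; against code 10 alone it was 1.68, 1.602, -0.66 and -0.89 in the same order.

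**Figure D4:**
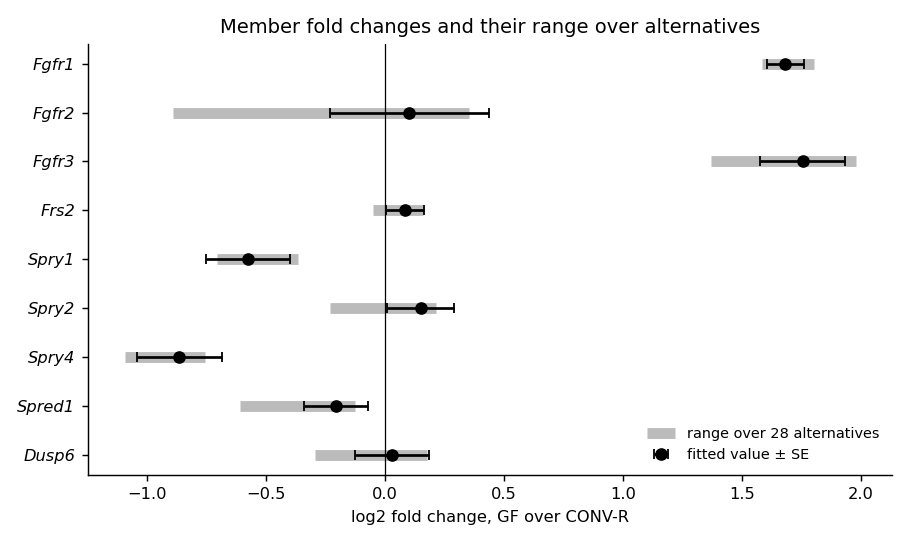
Fitted log2 fold change of each gene, GF over CONV-R (x axis), with its SE (black) and the lowest to highest value over 28 alternative analyses (grey). The grey ranges of Fgfr1 (1.58 to 1.80) and Fgfr3 (1.37 to 1.98) stay above 0 and those of Spry1, Spry4 and Spred1 below 0, while those of Fgfr2, Frs2, Spry2 and Dusp6 cross 0.

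For each gene, the gene with the most similar profile was the one whose log2 CPM, after subtracting its own mean over the 13 libraries, differed least on average from the member's. Of 13002 genes compared, the nearest to Fgfr1 were Tle1, a Groucho-type corepressor, at a mean difference of 0.17 log2 units, the sulfhydryl oxidase gene Qsox1 at 0.18 and Stc1, which encodes stanniocalcin-1, at 0.20, against a median of 0.84 over all genes. The nearest to Fgfr3 were Kcns3, a potassium channel subunit gene (0.15), the homeobox gene Pknox2 (0.19) and Shroom2, which encodes an actin-binding protein (0.19), against a median of 0.90. Nearest to Spry4 were 3110039I08Rik (0.17), Exd1 (0.18) and the LIM domain gene Fhl3 (0.18), and nearest to Spry1 was Insig1 (0.14), which encodes a sterol-regulated protein of the endoplasmic reticulum. Nearest to Spred1 was Hs3st3b1 (0.06), a heparan sulfate sulfotransferase gene, nearest to Spry2 was Arhgap29 (0.06), to Dusp6 Yy2 (0.10), to Frs2 Usp33 (0.04) and to Fgfr2 Sod3 (0.25). On leaving out 1 library, 3110039I08Rik moved to rank 6, 4 and 12 (without CONV-R 1, 6 and 7), Yy2 to rank 11 and 9 (without CONV-R 4 and 7), Sod3 to rank 8 (without CONV-R 1) and Usp33 to rank 8 (without CONV-R 5). Among the 9 genes themselves Spry2 and Frs2 were closest, at 0.14, and Fgfr3 and Spry4 farthest, at 1.30. The profiles include the GF to CONV-R difference known when the genes were chosen, so nothing is read from these distances. Log2 values, GF over CONV-R, were 1.55 for Tle1, 1.47 for Qsox1 and 1.71 for Stc1. They were 1.65 for Kcns3, 1.74 for Pknox2 and 1.40 for Shroom2.

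The remaining genes of the pathway were read from 7 lists with 173 genes outside the 9, of which 133 were abundant enough to be tested in the same fit. Of these, 18 were higher in GF and 15 lower (edgeR, adjusted p under 0.05), against 11.4% and 12.7% of all genes tested. The median log2 value over the 133 was 0.05, and over all genes -0.01. Scaled by library totals alone, 14 were higher and 25 lower, with the median of all genes at -0.11. The summed hepatocyte markers ran from 692 to 1106 CPM in GF and from 1255 to 9094 in CONV-R, with 13 of 15 lower and none at 0 throughout. Neutrophil and monocyte markers did not overlap either, at 80.2 to 172 CPM in GF and 207 to 2256 in CONV-R, with 9 of 10 lower and none at 0 throughout, and they averaged 1473 CPM at code 9 and 299 at code 10. With the hepatocyte sum as a covariate 2 pathway genes were higher and 2 lower, against 284 and 240 of all 13915 genes tested. With the cholangiocyte sum they were 1 and 2, against 254 and 122. With the immediate early sum they were 1 and 1, against 383 and 278. The hepatocyte and immediate early sums did not overlap between the groups, so these fits cannot fully separate either sum from the group. Of the 27 called genes picked by smallest p within each list, Fgf1 and Gpc1 passed with the hepatocyte sum. Gpc1, Dusp5 and Insr passed with the cholangiocyte sum and Insr with the immediate early sum. The part of these cells and genes in the results was not tested.

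FGF ligands were scarce. Of 22 ligand genes 9 had 0 counts in every library, 10 more had too few to be tested, with at most 28 counts in a library, and 3 were tested. Fgf1, which binds every FGF receptor, fell in GF: it ranged from 34.02 to 45.6 CPM in GF with a median of 39.6, against 35.9 to 72.4 in CONV-R with a median of 63.7 (log2 -0.63 ± 0.13 SE, edgeR adjusted p = 0.00571). The GF values overlapped only with CONV-R 1, and without that library the log2 value was -0.74. The call held on leaving out each of the 13 libraries in turn and with the hepatocyte sum as a covariate (log2 -1.03), and did not hold with the cholangiocyte sum (log2 -0.73) or the immediate early sum (-0.57), where the value itself stayed within 1.5 times. Fgf11 (log2 -0.40 ± 0.29) and Fgf12 (0.85 ± 0.42), which encode FGFs that stay inside the cell, did not pass.

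Of 14 other receptors and surface partners 1 passed, Gpc1, a heparan sulfate proteoglycan, which ranged from 28.04 to 38.9 CPM in GF and from 37.7 to 57.4 in CONV-R (log2 -0.43 ± 0.10, edgeR adjusted p = 0.00969). The Gpc1 value was -0.54 against code 10 alone and -0.27 against code 9 alone, where it did not pass. With the immediate early sum as a covariate it was -0.49 and did not pass. Fgfr4, the receptor through which bile acid synthesis is restrained in hepatocytes, stood at -0.15 ± 0.29 and Fgfrl1, a receptor with no kinase, at 0.04 ± 0.15. Of 18 heparan sulfate enzymes, Glce, the glucuronyl epimerase, rose (68.3 ± 5.29 CPM in GF and 41.0 ± 9.31 in CONV-R, log2 0.73 ± 0.13, edgeR adjusted p = 0.00200), with every GF library above all CONV-R libraries. The chain-starting xylosyltransferase gene Xylt1 was called lower at only 1.25 ± 0.30 CPM in GF and 2.82 ± 1.63 in CONV-R, and that call was lost in 9 of 13 fits that left out 1 library.

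In the 26 adaptor and RAS-MAPK genes 4 rose and 2 fell, all by small amounts, against 11.4% and 12.7% of all genes tested. Ptpn11, which encodes Shp2, rose by 0.28 ± 0.07 on the log2 scale and Cblb, a ubiquitin ligase gene, by 0.46 ± 0.11, whereas Map2k2, which encodes MEK2, changed by -0.26 ± 0.07. The calls for Crk (0.27), Rasa1 (0.21) and Araf (-0.28) were each lost in 5 to 8 of the 13 fits without 1 library, and the 20 others did not pass. Against code 10 alone Ptpn11 passed (0.26), while Cblb (0.37), Map2k2 (-0.21), Crk, Rasa1 and Araf did not.

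Of 20 other feedback genes 2 rose and 3 fell, against 11.4% and 12.7% of all genes tested. Il17rd, which encodes the FGF receptor inhibitor Sef, rose (29.4 ± 2.94 CPM in GF and 18.1 ± 6.66 in CONV-R, log2 0.69 ± 0.20, edgeR adjusted p = 0.0220, and 0.0544 without GF 12). The Il17rd value was 1.05 against code 9 alone and 0.48 against code 10 alone, where it did not pass. With the hepatocyte sum as a covariate it was 0.03 and did not pass. Dusp5, a nuclear ERK phosphatase gene, fell (2.73 ± 0.35 CPM in GF and 4.72 ± 1.01 in CONV-R, log2 -0.79 ± 0.17, edgeR adjusted p = 0.00520). The genes of the GTPase-activating proteins Rasal2 (0.64 ± 0.15) and Rasa3 (-0.82 ± 0.18) moved in opposite directions. Against code 10 alone Rasal2 was at 0.57 and did not pass. The cytokine-signalling inhibitor Socs3 changed by -1.15 ± 0.33, a call lost without GF 12 (edgeR adjusted p = 0.0551). In the 3-group fit Socs3 also differed within CONV-R (log2 1.5025 ± 0.19, edgeR adjusted p = 0.00749). It averaged 122 ± 42.3 CPM at code 9 and 42.8 ± 2.07 at code 10, against 34.4 ± 4.91 in GF libraries. A fit on the CONV-R libraries alone called 0 of 13809 genes between the codes. The GF value of Socs3 was -1.83 against code 9 alone and -0.32 against code 10 alone, where it did not pass. Spred2 (0.31 ± 0.15) and Spred3 (-0.47 ± 0.17), the relatives of Spred1, did not pass.

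ERK-responsive factors fell in 5 of 18 tested members and rose in 1, against 12.7% and 11.4% of all genes tested. The 1 that rose was Etv1, an ETS factor gene (21.4 ± 2.27 CPM in GF and 15.6 ± 2.55 in CONV-R, log2 0.45 ± 0.11). The 5 that fell were the immediate early genes Egr1 (-2.01 ± 0.45), Egr3 (-2.16 ± 0.45), Fos (-2.17 ± 0.54) and Ier2 (-0.64 ± 0.16) and the growth regulator Myc (-1.39 ± 0.27). Of these Egr1, Fos and Ier2 are also among the 14 immediate early markers summed above, whose sum was 1937 and 1898 CPM in CONV-R 6 and 7 and 632 to 773 in the other CONV-R libraries. Fos averaged 27.4 ± 5.98 CPM in GF, against 213 ± 138 at code 9 and 56.6 ± 24.7 at code 10, and its log2 value was -2.97 against code 9 alone and -1.05 against code 10 alone. Ier2 did not pass against code 10 alone (-0.44). Etv5, the ETS factor gene most closely tied to FGF signalling in development, stood at 0.17 ± 0.10 and did not pass, and Etv4 was too rare to be tested.

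Other receptor tyrosine kinases rose in 10 of 34 tested members and fell in 2, against 11.4% and 12.7% of all genes tested. The list median was 0.29. The insulin receptor gene Insr was the most raised of those named here (560 ± 87.6 CPM in GF and 231 ± 97.0 in CONV-R, log2 1.28 ± 0.22, edgeR adjusted p = 0.00168). Smaller rises were seen for the ephrin receptor gene Ephb4 (0.61 ± 0.11), Ryk (0.46 ± 0.09), Erbb2 (0.44 ± 0.09) and the VEGF receptor gene Flt1 (0.39 ± 0.10). A fit with the endothelial sum as a covariate was chosen after seeing the data. In it Ephb4 (0.38) and Ryk (0.29) passed, while Erbb2 (0.26) and Flt1 (0.21) did not. Egfr, which hepatocytes express strongly, changed by -2.04 ± 0.48 and stood at 0.19 with the hepatocyte sum as a covariate. Against code 10 alone Egfr was at -1.84 and did not pass. Kdr, the main VEGF receptor gene, stood at 0.07 ± 0.15, while Flt4, another VEGF receptor gene, rose (0.49 ± 0.16, edgeR adjusted p = 0.0447). Tek (0.37 ± 0.10) and Tie1 (0.37 ± 0.11) rose too, and like Kdr both are among the 15 endothelial markers. Endothelial genes were abundant in all 13 libraries, with the 15 markers at 40681 to 43900 CPM in GF and 24261 to 41332 in CONV-R and 8 of 15 higher. Among them Lyve1 rose (log2 0.93 ± 0.13), Pecam1 changed by 0.41 ± 0.11 and Stab2 by 0.39 ± 0.13, calls lost without 1 library in 1 and 11 of 13 fits, and Cdh5 (0.29 ± 0.13) and Clec4g (0.13 ± 0.11) did not pass.

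**Figure D5:**
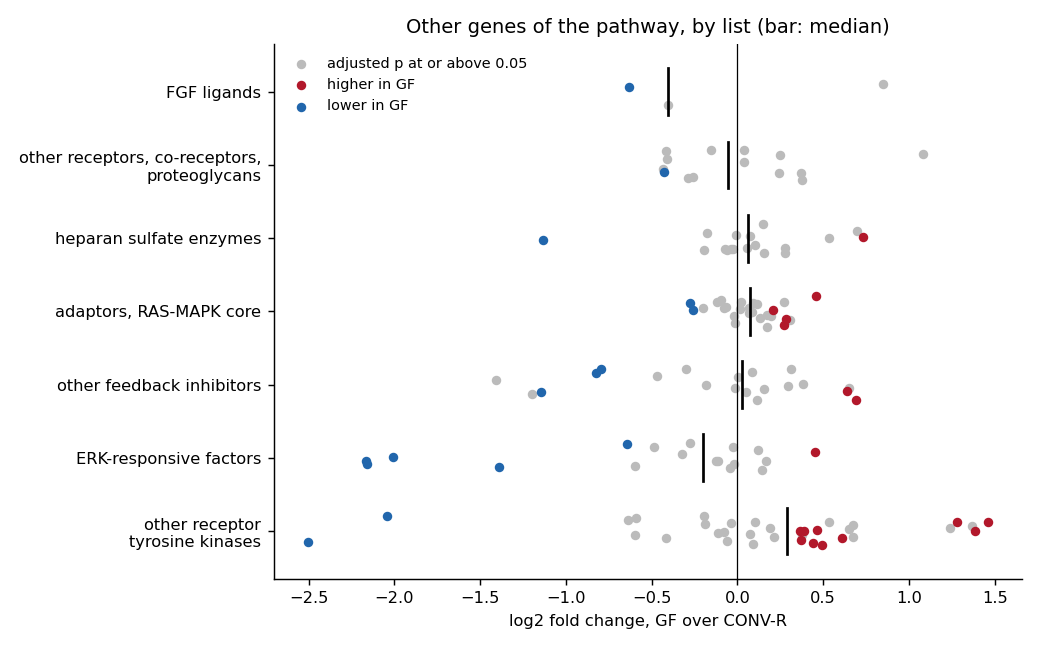
Log2 fold change, GF over CONV-R (x axis), of the 133 tested pathway genes outside the 9, in 7 lists (rows), with the list median as a bar. Of these, 18 genes in red were higher in GF, 15 in blue were lower, and the grey ones did not pass an adjusted p of 0.05.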

How the data were processed

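The authors deposited 1 table of raw counts, with genes as symbols. The submitters' processing notes name the build mm10, the aligner STAR 2.7.5a, the counter featureCounts 2.0.1 (Subread), FastQC 0.11.9 and DESeq2 1.42.1. Per the labels' protocols a TruSeq stranded mRNA kit and a NovaSeq instrument were used. For annotation, strand setting and filters: not given in the sources used here. The table held 0 duplicate symbols and 0 columns outside the series.

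Genes passing filterByExpr (minimum count 10, minimum total 15) were scaled by TMM and fitted by group with robust quasi-likelihood models in edgeR 4.0.16 (R 4.3.3), over all genes. The biological coefficient of variation was 0.264. SE are the log2 value divided by the root of F, and 95% intervals are 1.96 SE. Marker sums are CPM of the unscaled total, as log2 of the sum plus 1 when used as a covariate. Exon lengths are unions over GENCODE M21 transcripts, which lowers per-kb values of genes with many isoforms. Alternatives used DESeq2 1.42.0 and limma 3.58.1, other scalings and filters, covariates and left-out libraries. Libraries of 1 group always differed beyond counting error: the smallest ratio of chi-square to its degrees of freedom was 13.4, using genes of 20 or more counts.

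The 9 genes, the lists and the tests were chosen with earlier results of these data known. Named genes are the 9, up to 6 of each list with the smallest p among those past the threshold, the 3 nearest profiles of each member and 5 endothelial genes, of which the text describes part. Fgfr4, Fgfrl1, Fgf11, Fgf12, Spred2, Spred3, Etv4, Etv5, Kdr, Flt4, Tek and Tie1 were added after their values were seen.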

Additional observations from a re-analysis of the deposited data

Results flagged for a closer look

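In 100 sets of values (9 members, 32 other named genes and 9 marker sums, each in both groups), 11 held a library whose gap to the nearest other library took an unusually large part of the group's range; chance flags about 1 in 20. None was a value of the 9 genes. CONV-R 1 stood apart at 53.8 CPM of Cblb (others 34.3 to 42.0), 195 of Rasa3 (81.2 to 114), 517 of Flt1 (721 to 798), 30.9 of Erbb2 (40.0 to 46.2), 2700 of Stab2 (4510 to 5590) and 1420 CPM of summed T, NK and B cell markers (83.5 to 99.0). CONV-R 6 stood apart at 438 CPM of Insr (163 to 259), and CONV-R 5 at 2.25 CPM of mesothelial markers (0.487 to 1.14). GF 11 stood apart at 624 CPM of stellate and fibroblast markers (56.5 to 105) and 24.3 of mesothelial markers (0.993 to 2.65), and GF 8 at 151 CPM of T, NK and B cell markers (47.1 to 62.3). Without GF 11, which held the most Fgfr1 of all libraries, the log2 value of Fgfr1 was 1.65.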

How the results depend on the processing

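Over 28 alternatives the log2 values ran from 1.58 to 1.80 for Fgfr1, 1.37 to 1.98 for Fgfr3, -1.09 to -0.76 for Spry4 and -0.71 to -0.37 for Spry1; each kept its sign in all 28, as did Spred1 (-0.61 to -0.13), while Fgfr2 kept it in 19, Frs2 and Spry2 in 25 and Dusp6 in 15. Values that moved by more than the spread between libraries were those with the hepatocyte sum as a covariate for Fgfr3 (1.40), Spry2 (-0.23), Spred1 (-0.61) and Dusp6 (-0.30), with the cholangiocyte sum for Fgfr2 (-0.89) and Fgfr3 (1.37), and with the endothelial sum, chosen after seeing the data, for Spred1 (-0.48). Pathway genes outside the 9, 18 higher and 15 lower, became 8 higher against CONV-R code 10 alone, 33 higher and 25 lower against code 9 alone, 2 and 2 with the hepatocyte sum, 1 and 2 with the cholangiocyte sum, 1 and 1 with the immediate early sum, 5 higher with the endothelial sum, 8 and 7 at an adjusted p under 0.01, 23 lower with DESeq2 and 25 lower with library totals. Leaving out 1 library gave 12 to 21 higher and 13 to 20 lower. Over all genes the main fit called 1593 higher and 1764 lower. These became 284 and 240 with the hepatocyte sum, 254 and 122 with the cholangiocyte sum and 383 and 278 with the immediate early sum. Members called between code numbers 9 and 10 went from 0 to 2 with limma-voom, where 1305 of all genes were higher and 822 lower. Without CONV-R 1 and 7 they were 5 (Fgfr3, Frs2, Spry2, Spry4 and Dusp6), where 1173 of 14652 genes were higher and 911 lower. On leaving out 1 library they were 0 to 1, and on the CONV-R libraries alone 0, with 0 of 13809 genes called. Signs turned for Fgfr2 between code numbers with the cholangiocyte sum (0.69), for Egfr (0.19), Cdh5 (-0.16) and Clec4g (-0.11) with the hepatocyte sum and for Clec4g with the endothelial sum (-0.066). The causes were not tested. No paired analysis was possible because GF and CONV-R libraries share no replicate number. Counts down to 40 per library limit Fgfr2, and 7590320 counts limit CONV-R 6.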
